A study of Mus musculus with 10 samples.

Results

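The genes described here were the NF-kappaB subunits and their inhibitors in CD8+ dendritic cells (DCs) of the mouse spleen. The 10 genes were chosen by symbol, namely the subunits Rel, Rela, Relb, Nfkb1 and Nfkb2, the IkB inhibitors Nfkbia, Nfkbib, Nfkbie and Nfkbiz, and the deubiquitinase gene Tnfaip3, and all 10 were found among the 10767 genes of the expression table. RNA-seq was performed on splenic CD8+ DCs from Ppef2+/+ and Ppef2-/- mice, with 5 libraries per genotype from 5 independent sorts that each yielded 1 library of either genotype from pooled animals. Ppef2-/- mice carried a EUCOMM knockout-first allele, in which a gene trap interrupts the phosphatase gene Ppef2, in all cells and from the germ line, and the founders were bred to C57BL/6. The mice were untreated adults matched for sex and age, so the comparison asked whether CD8+ DCs that lack Ppef2 differ in the RNA of this pathway without a given stimulus. Spleens were digested with enzymes and the cells were sorted before lysis, so the levels are those of handled cells. The p-values below rest on the spread between these 5 sorts. Those of the linear model (limma) also draw on the spread of other genes at the same level.

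NF-kappaB transcription factors are dimers of Rel family proteins. Rel, Rela and Relb carry a domain that activates transcription, whereas Nfkb1 and Nfkb2 encode the precursors p105 and p100, which are processed to the DNA-binding subunits p50 and p52. In resting cells IkB proteins hold the dimers in the cytoplasm, and IkB kinase marks these inhibitors for destruction once a Toll-like or TNF family receptor is engaged. Several inhibitor genes, Nfkbia and Tnfaip3 among them, are textbook targets of the factor that they restrain, and in DCs the pathway is known for its part in maturation, cytokine production and survival.

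The promoters are shown first because a kappaB site in front of an inhibitor or subunit gene is the usual mark of this feedback. RefSeq promoters on GRCm38.p6 (mm10), reaching from 250 bases before to 50 bases after the start site, were at hand for 7 of the 10 genes (Rel, Rela, Nfkb2, Nfkbia, Nfkbib, Nfkbie and Tnfaip3). The 10-base kappaB consensus, searched on both strands, matched for 5 of these 7 genes, in 7 of the 10 promoters listed for them, while 8.46% of all 32851 promoters in the table held a match. Below, the 130 bases before the first listed start site of each of the 5 genes are written 5′ to 3′ on the strand of the gene, with the kappaB matches in capitals. Of all promoters, 3.94% held a match in this 130-base window.
Tnfaip3 (chr10:19015411-19015540, minus strand): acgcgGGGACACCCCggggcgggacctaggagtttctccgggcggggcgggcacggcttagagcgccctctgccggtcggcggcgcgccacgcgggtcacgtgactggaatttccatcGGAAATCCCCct
Rel (chr11:23770970-23771099, minus strand): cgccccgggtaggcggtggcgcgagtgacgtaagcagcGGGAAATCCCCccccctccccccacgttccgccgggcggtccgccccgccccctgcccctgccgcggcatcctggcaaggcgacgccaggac
Nfkb2 (chr19:46304607-46304736, plus strand): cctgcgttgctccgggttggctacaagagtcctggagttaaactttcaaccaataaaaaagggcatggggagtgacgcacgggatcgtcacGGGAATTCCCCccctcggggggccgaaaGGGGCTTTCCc
Nfkbia (chr12:55492648-55492777, minus strand): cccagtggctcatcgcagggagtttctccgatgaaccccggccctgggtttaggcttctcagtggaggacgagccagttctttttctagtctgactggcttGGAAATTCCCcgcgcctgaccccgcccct
Nfkbie (chr17:45555570-45555699, plus strand): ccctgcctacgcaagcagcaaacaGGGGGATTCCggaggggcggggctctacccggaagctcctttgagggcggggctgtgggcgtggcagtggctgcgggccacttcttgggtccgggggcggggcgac
The Tnfaip3 window held 2 separate matching stretches, and the second of them ended 3 bases before the start site. In the Nfkb2 window 2 stretches were found as well, of which the second ended 2 bases before the start site. Rel, Nfkbia and Nfkbie each held 1 stretch. The letters of the consensus were not found in the listed promoters of Rela and Nfkbib. A match is a description of the letters and was not tested for binding.

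The deposited values are DESeq2-normalized read counts. For 10721 of the 10767 genes both libraries of a sort added up to the same sum in every sort, to within a relative spread of 6.3e-06, so the mean of each sort had been taken out of each gene before deposition. The difference in counts between the genotypes within a sort is kept by this step, whereas the level of a gene in one sort and its spread across sorts are not. A log2 difference is therefore taken around the overall level of the gene instead of its level in that sort. As a consequence the SD is the same in both genotypes, and a gene whose genotypes do not overlap is the same as a gene that differs in 1 direction in all 5 sorts. Ppef2, as the check of the genotype, was at 243, 196, 170, 162 and 212 normalized counts in Ppef2+/+ DCs of sorts 1 to 5 and at 1.00, 3.04, 28.6, 36.7 and 1.00 in Ppef2-/- DCs. These are values after removal of the sort means and not levels of Ppef2 RNA in the knockout, but every Ppef2-/- library was far below every Ppef2+/+ library. Ppef2 was the 1 gene of the table with an adjusted p under 0.05 in limma, with a block for each sort and Benjamini-Hochberg adjustment, which is 0.00929% of all genes. Whole reads could be recovered for 9580 of 9581 genes with values below 1000. Over these genes the libraries held 1395334 to 2271848 reads in Ppef2+/+ and 1506657 to 4406112 reads in Ppef2-/-, and this is the part of each library in these genes. All 14 cDC1 markers searched, such as Xcr1 and Clec9a, were in the table, and none of the 6 NK cell markers was. Also in the table were 7 of 8 cDC2, 3 of 8 B cell and 1 of 8 T cell markers. The same held for 1 of 6 neutrophil and 5 of 8 erythroid and platelet markers, while pDC and macrophage markers are given below.

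None of the 10 NF-kappaB genes passed the adjusted threshold, and their adjusted p-values lay between 0.995 and 0.999 (limma, over all 10767 genes). At an unadjusted p under 0.05, 4 of the 10 were called, namely Rel, Nfkb2, Nfkbiz and Tnfaip3, against 4.29% of all genes. All 4 were higher in Ppef2-/- DCs, where 2.3% of all genes were called higher and 1.99% lower. The log2 difference was above 0 for 8 of the 10 genes and below 0 for Rela and Nfkb1. Its median over the 10 genes was 0.10, beside 0.00 for all genes, of which 50.5% were above 0. The 95% intervals of the 10 differences together reached from -0.18 to 0.30 on the log2(count + 1) scale, that is from 0.885-fold for Rela to 1.23-fold for Relb. In these bulk samples, fewer cells of a type and less RNA per cell cannot be told apart.

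**Figure D1:**
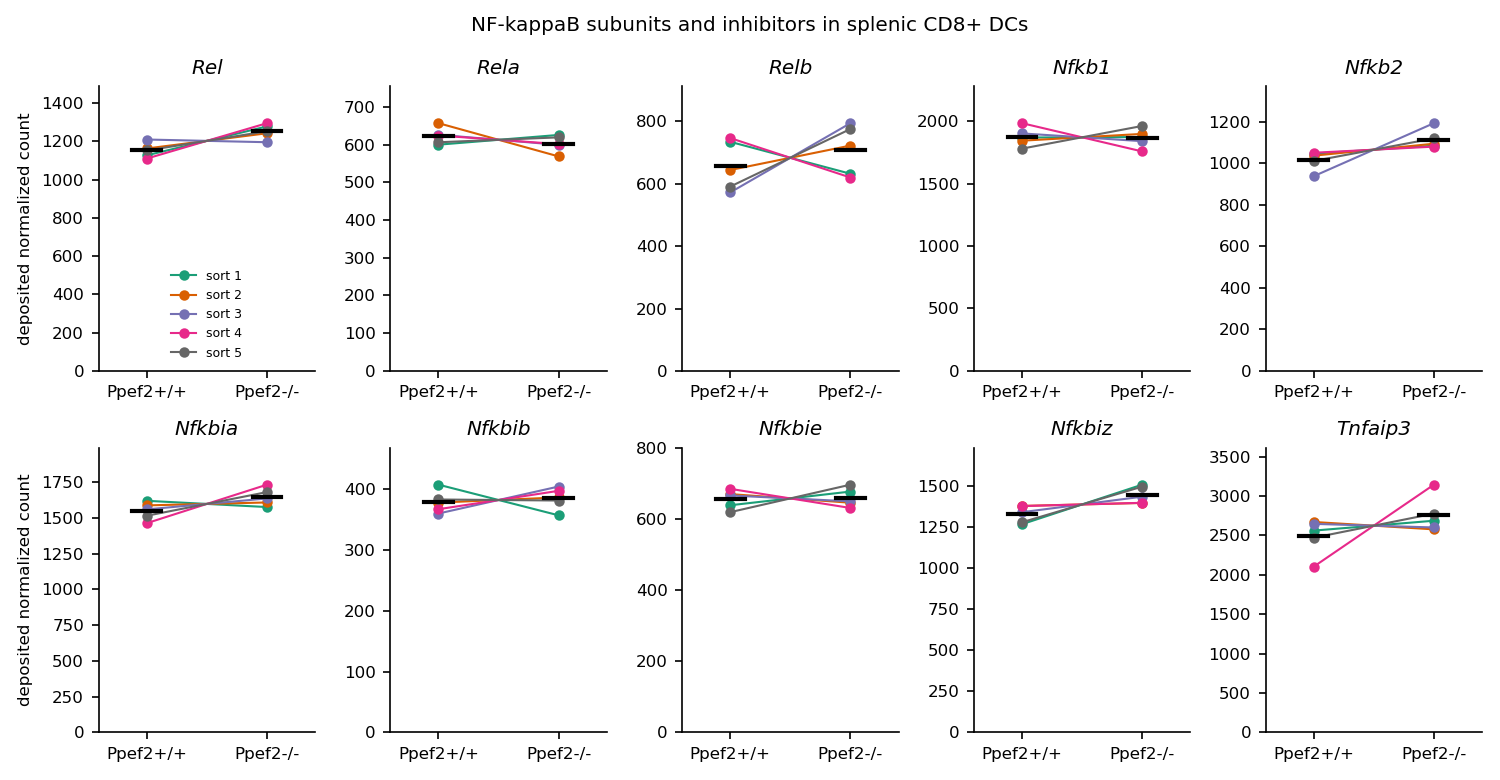
Deposited normalized counts of the 10 genes (vertical axes, each from 0) in Ppef2+/+ and Ppef2-/- CD8+ DCs; each line joins the libraries of 1 sort and black bars are means of 5 libraries. The lines of Nfkb2 and Nfkbiz rise in all 5 sorts, the lines of Relb cross, and the line of sort 4 stands out for Tnfaip3.

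Among the activating subunits, Rel, which encodes c-Rel and is needed for cytokine genes such as the IL-12 subunits, was at 1126, 1162, 1209, 1109 and 1152 normalized counts in Ppef2+/+ DCs of sorts 1 to 5. In the Ppef2-/- libraries it was at 1277, 1242, 1195, 1294 and 1252. The genotypes overlapped through sort 3, in which Rel was lower in the Ppef2-/- library by 0.02 on the log2 scale. Its means were 1152 ± 38.1 and 1252 ± 38.1 (SD, n = 5). The log2 difference was 0.12 with an SE of 0.05, with an unadjusted p of 0.0366 in limma and an exact p of 0.125 when the genotypes were exchanged within sorts. With 5 sorts this exact permutation test, which is two-sided, cannot go below 0.0625. Without sort 1, 2, 4 or 5 the unadjusted limma p of Rel was over 0.05, at 0.0633 to 0.115.

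Rela, which encodes p65, the activating partner in the most common dimer, was at 600, 657, 626, 624 and 606 normalized counts in Ppef2+/+ DCs. In Ppef2-/- DCs it was at 625, 568, 599, 601 and 619. The values of the genotypes overlapped, and Rela was higher in the knockout in 2 of 5 sorts. The log2 difference was -0.05 with an SE of 0.06 (95% interval -0.18 to 0.08, exact permutation p = 0.4375). It lay between -0.07 without sort 1 and -0.0063 without sort 2.

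Relb, the activating partner of p52 in the non-canonical pathway, behaved in another way. It was at 734, 644, 572, 746 and 591 normalized counts in Ppef2+/+ DCs of sorts 1 to 5. In the Ppef2-/- libraries it was at 632, 722, 794, 620 and 776. The direction therefore changed from sort to sort, with log2 differences of -0.22, 0.17, 0.47, -0.27 and 0.39. Each of these 5 differences was larger than the 95% counting error of its pair of libraries, a count reached by no other gene of the 10. The mean difference was 0.11 with an SE of 0.09 (95% interval -0.08 to 0.30, exact permutation p = 0.5625). Without sort 3 it was 0.02, without sort 5 it was 0.04, and without sort 1 and without sort 4 it was 0.19 and 0.20. The unadjusted limma p of Relb was 0.0259 without sort 4 and 0.0631 to 0.842 on leaving out any other sort. The SD of the 5 within-sort differences was 0.34, above that of 98.2% of the 3660 genes with a mean over 300 normalized counts, whose median SD was 0.13. The genes of the table whose 5 differences lay nearest to those of Relb were Cstf2t, Chka and Adap1, at root mean square distances of 0.11, 0.11 and 0.11 over 5 sorts among 6850 genes with a mean of at least 100 normalized counts.

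Of the subunits made as precursors, Nfkb1, the source of p50, was at 1868, 1843, 1901, 1983 and 1779 normalized counts in Ppef2+/+ DCs. In Ppef2-/- DCs it was at 1872, 1897, 1839, 1757 and 1961. The genotypes overlapped widely, with the knockout lower by 0.17 on the log2 scale in sort 4 and higher by 0.14 in sort 5. The mean difference was -0.01 with an SE of 0.05 (95% interval -0.12 to 0.10), and its sign turned when sort 3 or sort 4 was left out.

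Nfkb2, the source of p52 and itself an inhibitor as uncleaved p100, was at 1047, 1038, 939, 1052 and 1012 normalized counts in Ppef2+/+ DCs. In the Ppef2-/- libraries it was at 1085, 1095, 1194, 1081 and 1121. Every Ppef2-/- library was above every Ppef2+/+ library. Of the 10 genes, Nfkb2 and Nfkbiz did not overlap between the genotypes and both were higher in the knockout, beside 6.18% of all genes that did not overlap and 3.26% that did so with the higher values in Ppef2-/- DCs. The log2 differences of Nfkb2 were 0.05, 0.08, 0.35, 0.04 and 0.15 in sorts 1 to 5, so that sorts 3 and 5 exceeded the counting error and sorts 1, 2 and 4 did not. The means were 1017 ± 46.7 and 1115 ± 46.7 (SD, n = 5), a log2 difference of 0.13 with an SE of 0.06, an unadjusted p of 0.0324 in limma and an exact permutation p of 0.0625, the smallest that 5 sorts allow. Without sort 3 the difference was 0.08 with an unadjusted p of 0.20 in limma, and without sort 5 it was 0.13 with a p of 0.0624 in limma. Without sort 1, 2 or 4 the unadjusted limma p was 0.0366, 0.0466 and 0.0179.

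**Figure D2:**
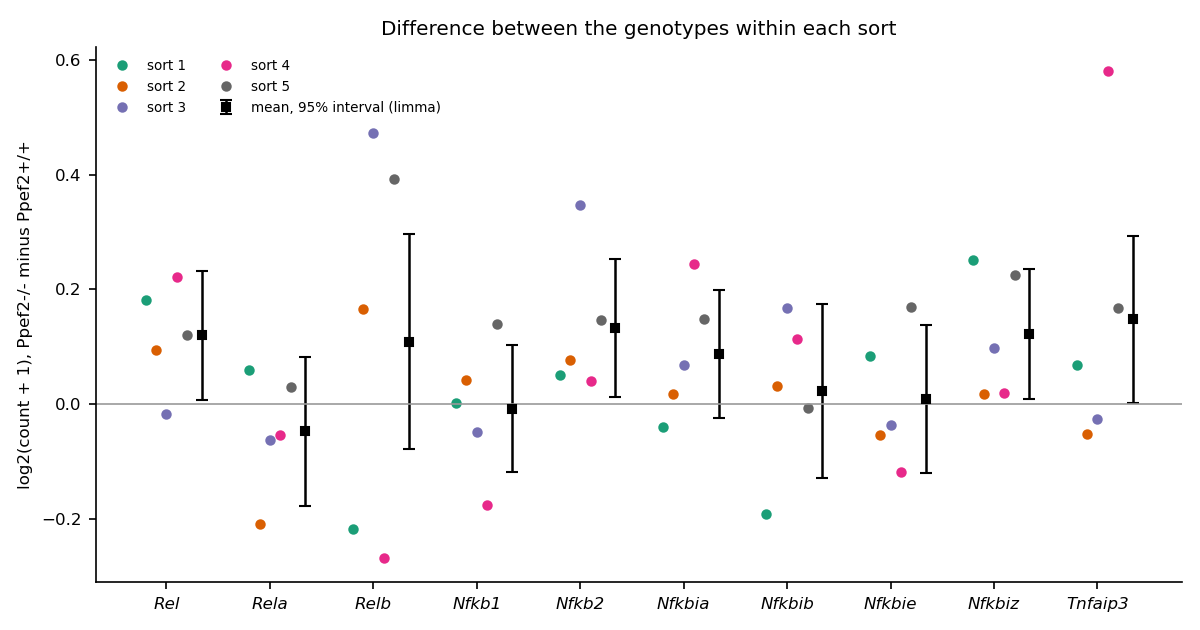
Log2 difference of the normalized count + 1, Ppef2-/- minus Ppef2+/+ (vertical axis), of each of the 10 genes within each of the 5 sorts (coloured points), with the limma mean and its 95% interval (black squares and bars). The points of Relb reach from -0.27 to 0.47, the point of Tnfaip3 in sort 4 is at 0.58, and the interval of 4 genes stays above 0 before adjustment.

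Of the IkB genes, Nfkbia, which encodes IkB alpha, the inhibitor that is destroyed and made again within a pulse of signaling, was at 1621, 1588, 1561, 1464 and 1516 normalized counts in Ppef2+/+ DCs. In Ppef2-/- DCs it was at 1577, 1609, 1637, 1734 and 1682. The knockout was lower in sort 1 and higher in the other 4 sorts, and the genotypes overlapped. The log2 difference was 0.09 with an SE of 0.05 (95% interval -0.02 to 0.20, exact permutation p = 0.1875). It came to 0.24 in sort 4 and 0.15 in sort 5, and both exceeded the counting error. Without sort 4 it was 0.05, and without sort 5 it was 0.07.

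Nfkbib, which encodes IkB beta, was at 359 to 407 normalized counts in Ppef2+/+ DCs, with a median of 377, and at 356 to 404 in Ppef2-/- DCs, with a median of 386. None of its 5 within-sort differences exceeded the counting error. Nfkbie, which encodes IkB epsilon, was at 620 to 686 normalized counts with a median of 667 in Ppef2+/+ DCs, and at 632 to 698 with a median of 651 in Ppef2-/- DCs. The log2 differences were 0.02 with an SE of 0.07 for Nfkbib (95% interval -0.13 to 0.17) and 0.01 with an SE of 0.06 for Nfkbie (95% interval -0.12 to 0.14). Both genes overlapped between the genotypes, and the sign of either turned on leaving out 1 sort.

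Nfkbiz, which encodes the nuclear IkB zeta, a cofactor of p50 at secondary response genes, was at 1267, 1378, 1340, 1378 and 1279 normalized counts in Ppef2+/+ DCs of sorts 1 to 5. In the Ppef2-/- libraries it was at 1508, 1397, 1435, 1397 and 1496. The genotypes did not overlap, although in sorts 2 and 4 the differences were 0.02 and 0.02 on the log2 scale, within the counting error. Sorts 1 and 5 carried the differences beyond counting error, at 0.25 and 0.23. The means were 1328 ± 53.1 and 1447 ± 53.0 (SD, n = 5), a log2 difference of 0.12 with an SE of 0.05, an unadjusted p of 0.0347 in limma and an exact permutation p of 0.0625. Without sort 1, 3 or 5 the unadjusted limma p was 0.163, 0.051 and 0.123.

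Tnfaip3 encodes A20, which removes ubiquitin chains from the signaling complexes upstream of IkB kinase. It was at 2560, 2670, 2646, 2103 and 2470 normalized counts in Ppef2+/+ DCs of sorts 1 to 5, and at 2686, 2576, 2600, 3143 and 2776 in the Ppef2-/- libraries. Sort 4 stood apart with a log2 difference of 0.58, a knockout value 49.5% above that of the control, while the other 4 sorts lay between -0.05 and 0.17. The mean difference was 0.15 with an SE of 0.07, with an unadjusted p of 0.0459 in limma and an exact permutation p of 0.3125. Without sort 4 it was 0.04 with an unadjusted p of 0.433 in limma. The SD of the within-sort differences, 0.26, was above that of 93.8% of the 3660 genes with a mean over 300 normalized counts. Limma draws such an SD toward that of other genes at the same level, so the SEs given for Relb and Tnfaip3 are smaller than their own 5 differences would give. Without the trend in this step none of the 10 genes had an unadjusted p under 0.05, and Tnfaip3 had an SE of 0.11. The share of all genes in that fit is not given here.

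Sort by sort, the knockout was higher in 7, 7, 5, 6 and 9 of the 10 genes. The median log2 differences of the 10 genes in sorts 1 to 5 were 0.06, 0.03, 0.03, 0.03 and 0.15, beside medians of all genes between -0.01 and 0.01. Sort 5 therefore had the highest median, and in it Nfkbib alone was lower in the knockout, by 0.01 on the log2 scale. In sort 4 Tnfaip3, Nfkbia and Rel were higher in the knockout by 0.58, 0.24 and 0.22, whereas Relb and Nfkb1 were lower, at -0.27 and -0.17. Relb stood at either end of the list, since it had the highest difference of the 10 in sorts 2, 3 and 5 and the lowest in sorts 1 and 4. Genes that are induced while tissue is handled (22 of 22 listed immediate early and heat shock genes were in the table) had medians of 0.18, -0.06, 0.16, -0.10 and 0.20 in the 5 sorts. Of these handling genes none passed the adjusted threshold, and 7 were higher and 3 lower at an unadjusted p under 0.05, beside 2.3% and 1.99% of all genes. The 3 lower genes were all heat shock genes, among them Dnajb1 and Hspa1b at -0.32 and -0.20 on the log2 scale. The 7 higher ones were from the immediate early part of the list, so its median joins 2 groups that differ in direction. Some handling genes were abundant in both genotypes. Hspa1b had means of 32000 and 27967 normalized counts in Ppef2+/+ and Ppef2-/- DCs, and Fosb of 16740 and 18658. The part of handling in the levels and differences of Nfkbiz and the other members was not tested.

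**Figure D3:**
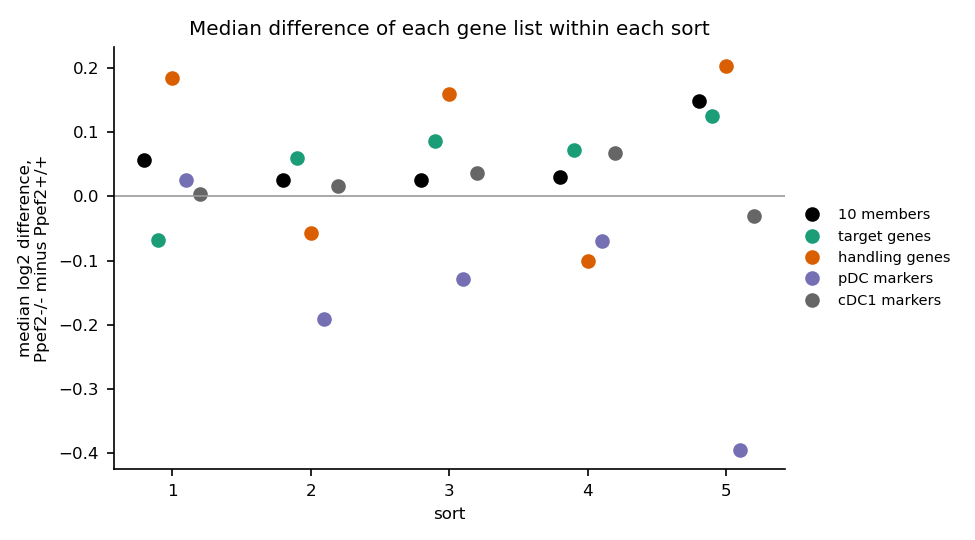
Median log2 difference, Ppef2-/- minus Ppef2+/+ (vertical axis), of the 10 NF-kappaB genes and of 4 other gene lists within each of the 5 sorts (horizontal axis). The median of the 10 genes stays between 0.03 and 0.15, that of the handling genes moves between -0.10 and 0.20, and that of the pDC markers is at -0.39 in sort 5.

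The level of a gene in a sort could be put back where the whole reads of all 10 libraries had 1 solution, and this was the case for Rela, Relb, Nfkbib and Nfkbie, with 223 to 1436 reads per library. The other 6 genes had values of 1000 or more and were not attempted. Nfkbib then stood at 327, 304, 476, 424 and 361 normalized counts in Ppef2+/+ DCs of sorts 1 to 5 and at 277, 313, 521, 454 and 359 in the Ppef2-/- libraries. Both genotypes were low in sorts 1 and 2 and high in sort 3, and the mean of the sort ranged 1.65-fold, from 302 to 499. For Relb, Rela and Nfkbie the highest sort mean was 1.29-, 1.24- and 1.24-fold above the lowest. The SD of Nfkbib in Ppef2+/+ DCs was 71.1 with the sort means put back, beside 18.2 as deposited, and that of Rela was 60.2 beside 22.2. The SD of Relb in Ppef2+/+ DCs was 79.7 beside 80.2, with no such rise, and in Ppef2-/- DCs it was 135 beside 80.2. The log2 difference within a sort moved as well, from -0.19 as deposited to -0.24 for Nfkbib in sort 1 and from -0.22 to -0.25 for Relb in sort 1. The mean log2 differences on this scale were -0.04 for Rela, 0.09 for Relb, 0.00 for Nfkbib and 0.01 for Nfkbie.

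**Figure D4:**
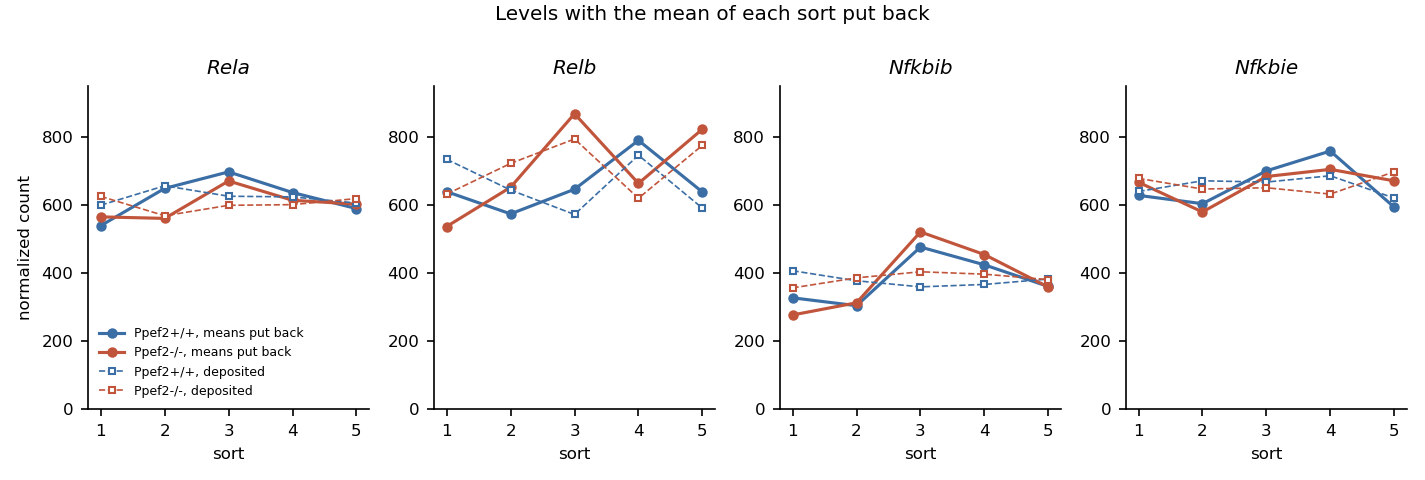
Normalized counts of Rela, Relb, Nfkbib and Nfkbie (vertical axes) in the 5 sorts (horizontal axes), as deposited (dashed lines, open squares) and with the mean of each sort put back from whole reads (solid lines, filled circles), for Ppef2+/+ (blue) and Ppef2-/- (red). The 2 solid lines of Nfkbib move together from 277 and 327 in sort 1 to 521 and 476 in sort 3, while its dashed lines are nearly flat.

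Levels can be compared between genes only per length. Reads were counted on RefSeq genes and the lengths are from GENCODE, so counts and lengths may not cover the same bases in any of the 10 genes. The levels are those after digestion and sorting. Divided by the summed exons of each gene (GENCODE M21, GRCm38), Nfkbia had the highest level, at 963 normalized counts per kb in Ppef2+/+ and 1023 in Ppef2-/- DCs. Tnfaip3 followed at 345 and 381, and Nfkbiz at 265 and 288, and the libraries of these 3 genes did not overlap with those of the next gene in either genotype. Nfkb2, Nfkbie and Rela came next, at 222, 216 and 203 normalized counts per kb in Ppef2+/+ DCs, and neighbours among them overlapped in Ppef2+/+ DCs. Nfkbib, Relb, Nfkb1 and Rel lay lowest, between 154 and 174, and each overlapped its neighbour in Ppef2+/+ DCs. These ranges were read from deposited values, which lack the spread between sorts, and so understate the overlap. The place of Nfkb1 depended on the length used. Its summed exons span 12061 bp, over 10 annotated transcripts, one of them an unspliced transcript of 4149 bp, whereas its longest protein-coding transcript has 4117 bp in 25 exons. By the longest protein-coding transcript of each gene, a length chosen after the levels were seen, Nfkb1 took place 3 at 455 normalized counts per kb in Ppef2+/+ DCs, behind Nfkbia at 982 and Tnfaip3 at 563. Relb moved from place 8 to place 5 at 298, and Rel remained last at 154.

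**Figure D5:**
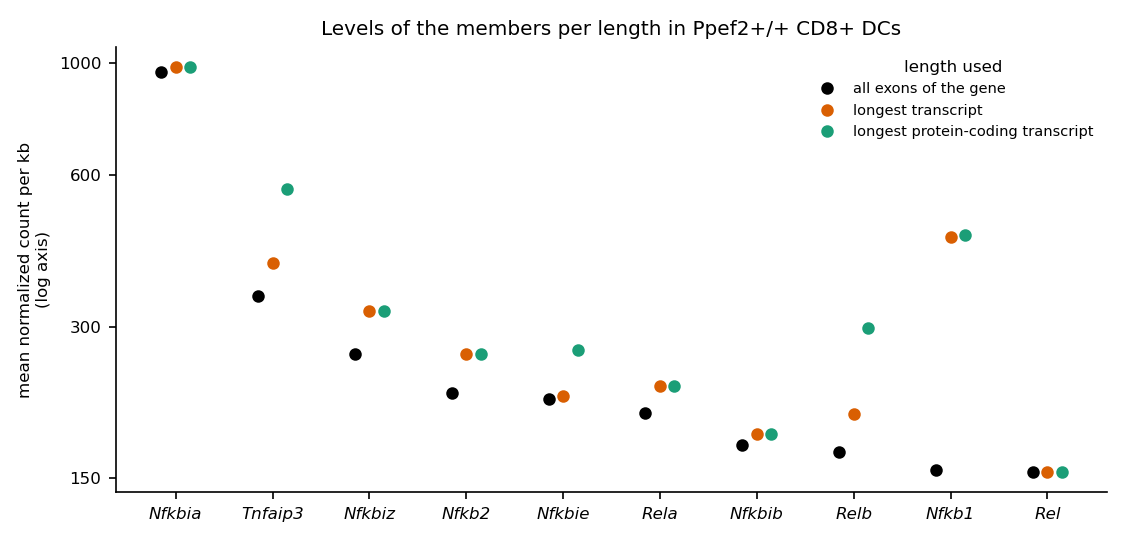
Mean normalized count per kb (vertical axis, log scale) of the 10 genes in Ppef2+/+ CD8+ DCs, with the length taken as all exons of the gene (black), the longest transcript (orange) or the longest protein-coding transcript (green). Nfkbia is at the top by each length, and Nfkb1 moves from 155 to 455.

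The remaining genes of the pathway were read from lists of upstream receptors, adaptors and ubiquitin enzymes, IkB kinase and its regulators, and other IkB proteins and negative regulators. Of the 85 listed genes 78 were in the table, none passed the adjusted threshold, and at an unadjusted p under 0.05 there were 2 higher and 2 lower, beside 2.3% and 1.99% of all genes. Their median log2 difference was -0.01. Tank, an adaptor that binds the IkB kinase related kinases, was higher in the knockout in 5 of 5 sorts, from 311 ± 8.32 to 363 ± 8.32 normalized counts (SD, n = 5), a log2 difference of 0.22. Rbck1, which encodes HOIL-1, a subunit of the linear ubiquitin ligase, was lower in 5 of 5 sorts, from 903 ± 12 to 808 ± 12 (SD, n = 5), a log2 difference of -0.16. Both are values at adjusted p = 0.995 (limma). The other 2 were Tlr4, a receptor for bacterial lipopolysaccharide, and Nkiras1, a Ras-like inhibitor of IkB degradation. In Ppef2+/+ and Ppef2-/- DCs Tlr4 was at 30.8 ± 7.38 and 49.3 ± 7.38 normalized counts, and Nkiras1 at 39.9 ± 6.06 and 27.3 ± 6.06 (SD, n = 5). Both rest on few reads, with within-sort log2 differences of 0.14 to 1.60 for Tlr4 and -1.32 to 0.04 for Nkiras1.

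Known NF-kappaB targets outside the 10 genes were described in the same way. Of 51 listed target genes 44 were in the table, 7 were higher (2.3% of all genes were) and none lower at an unadjusted p under 0.05, and none passed the adjusted threshold. Their median log2 difference was 0.05, with 32 of 44 above 0. The cytokine gene Tnf was at 236 ± 31.5 normalized counts in Ppef2+/+ and 313 ± 31.5 in Ppef2-/- DCs (SD, n = 5), with log2 differences of 0.06, 0.79, 0.40, 0.71 and 0.10 in sorts 1 to 5 (adjusted p = 0.711, limma). The chemokine gene Cxcl9 differed by 0.19, 0.16, 0.19, 1.00 and 0.06. Sort 4, in which Tnfaip3 differed most, was also the highest sort for Cxcl9 and for the chemokine gene Ccl2, at 2.36 on the log2 scale, but in sort 2, where Tnf differed most, Tnfaip3 was at -0.05. The value of Ccl2 rests on few reads, since its means were 15.9 ± 6.19 and 34.4 ± 6.19 normalized counts in Ppef2+/+ and Ppef2-/- DCs (SD, n = 5). Ier3, an immediate early survival gene, was higher in 5 of 5 sorts by 0.24 to 0.61, and the chemokine gene Ccl4 by 0.02 to 0.83.

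No marker of another cell type passed the adjusted threshold. Of all genes, 2.3% were higher and 1.99% lower in the knockout at an unadjusted p under 0.05 (limma). Of 7 listed markers of plasmacytoid DCs (pDCs), 6 were in the table, and 2 of these, Tcf4 and Siglech, were lower in the knockout in 5 of 5 sorts at an unadjusted p under 0.05, with log2 differences of -0.31 and -0.25 (adjusted p = 0.711 and 0.995, limma). Klk1 and Bst2 were at -0.81 and -0.05, and Ccr9 and Spib at 0.03 and 0.04. The summed level of the 6 markers was 1246 to 1335 normalized counts in Ppef2+/+ and 1130 to 1216 in Ppef2-/- libraries, without overlap, and Tcf4 had the largest part in this, with means of 423 and 342 normalized counts. These ranges were read from deposited values, which lack the spread between sorts. In such values 6.18% of all single genes did not overlap. Of 10 macrophage and monocyte markers 9 were in the table, and 1 of them, Ly6c2, had an unadjusted p under 0.05, with a log2 difference of -0.45 and lower values in 3 of 5 sorts. The summed level of these 9 markers was 1558 to 1818 normalized counts in Ppef2+/+ and 1573 to 1833 in Ppef2-/- libraries. The pDC medians were 0.03, -0.19, -0.13, -0.07 and -0.39 in sorts 1 to 5, so sort 5 combined the lowest pDC median with the highest median of the 10 NF-kappaB genes, and the part of pDCs in this was not tested. None of the 14 cDC1 markers had an unadjusted p under 0.05, and their summed level was 77053 to 79433 normalized counts in Ppef2+/+ and 77761 to 80140 in Ppef2-/- libraries.

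When the sort was left out of the model, which then counts degrees of freedom that the deposited values no longer hold, 0.957% of all genes passed the adjusted threshold and 17.5% had an unadjusted p under 0.05. In that model none of the 10 NF-kappaB genes passed either, with a smallest adjusted p of 0.0839 for Rel (limma), and 5 of the 10 had an unadjusted p under 0.05.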

How the data were processed

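RNA-seq values of 10 libraries (5 Ppef2+/+ and 5 Ppef2-/-, sorts 1 to 5 by the labels) were taken from 1 table. Per the labels and the study's methods, the authors aligned reads to mm10 (the methods name HISAT, the submitters' processing notes TopHat2 2.0.3), counted reads per RefSeq gene in Partek 6.6, and normalized them with DESeq2; the deposited signal is this normalized read count, floored at 1, with genes kept from a larger group mean of 10. The smallest deposited value was 1, held by 61 values in 46 genes. The removal of sort means was read from the values.

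Log2(value + 1) was fitted with limma 3.58.1 in R 4.3.3, with a trend, genotype and the sort as a block, and Benjamini-Hochberg adjustment over 10767 genes. The labels give a sort number shared by both genotypes. With sort means put back, the deviations of same-numbered libraries had correlations across 9580 genes of 0.322, 0.160, 0.268, 0.282 and 0.0392 in sorts 1 to 5. The libraries of sort 5 thus hardly deviated together, and libraries of different number were not compared. In the deposited values the correlations were -0.911 to -0.926 because of the removed means. Whole reads were solved from the within-sort differences. Each is a whole multiple of the value of 1 read in the Ppef2-/- library minus a whole multiple of that value in the Ppef2+/+ library. The value of 1 read was 0.464 to 1.50 normalized counts. Counting errors rest on these values and cover counting only. Scripts were tested on simulated data. Named beside the 10 genes were Ppef2, up to 5 genes per list at an unadjusted p under 0.05, and the 3 genes nearest to Relb. The members and lists were chosen with earlier results of these data known. Strandedness of the counting is not given in the sources used here.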

Additional observations from a re-analysis of the deposited data

How the results depend on the processing

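No NF-kappaB gene passed the adjusted threshold under any of the 14 alternatives (4 of the 10 were measured in those on recovered reads), and 123 of 128 recomputed log2 differences of the 10 genes kept their direction and side of the threshold. Leaving out the block, the trend or the genes of low mean cannot change a log2 difference. In those alternatives only the side of the threshold could move. The exceptions to the kept directions were sign changes on leaving out a sort. Nfkb1 ranged from -0.0444 to 0.0343 (above 0 without sort 3 and without sort 4, at 0.00258 and 0.0343), Nfkbie from -0.0308 to 0.0411 (below 0 without sort 1 and without sort 5, at -0.00945 and -0.0308) and Nfkbib from -0.0126 to 0.0768 (below 0 without sort 3). The cause was not tested. The number of the 10 genes at an unadjusted p under 0.05, 4 as reported beside 4.29% of all genes, was 0 to 3 on leaving out 1 sort and 0 without the trend. The share of all genes in those fits is not given here, so a change particular to the 10 genes cannot be read from these counts. Which of the 10 genes were called changed as well, since without sort 4 they were Relb, Nfkb2 and Nfkbiz. The number of all genes called, 1 as reported, was 1 to 4 on leaving out 1 sort and 0 without the trend, where Ppef2 missed the threshold. The list genes called, 0 as reported, were 0 to 2 on leaving out 1 sort (Dnajb1 and Egr1 without sort 4). With sort means put back and in voom on recovered reads the 1 gene called was Gp2, since Ppef2 holds floor values and was not resolved. These names were chosen after their values were seen.

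Without the replicate block, 103 genes and 4 list genes (Ier3, Tank, Rbck1 and Dusp2) were called, and no NF-kappaB gene. The order per kb kept 4 of 10 places with the longest transcript and 3 of 10 with the longest protein-coding transcript, an alternative added after seeing the data. It kept 4 of 4 with sort means put back, but that step leaves the mean of each genotype unchanged, so this order could not move.

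What 5 sorts can resolve differs by gene, as the 95% intervals of the single genes show. The interval of Relb, the widest of the 10, rests on an SE of 0.09 that was 0.13 without the trend.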
